A study of Mus musculus with 8 samples.

Results

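The genes described here are Myc and 29 genes of ribosome biogenesis, chosen by symbol from a list of nucleolar factors and Myc targets. All 30 were found among the 49315 features of the deposited table, each as 1 feature. The series compared splenic B cells of mice aged 4 months. The UMPS_BKO group held 4 libraries of genotype FcgammaR2BKO/UMPS BKO, in which B cells were deficient in UMPS, and the control group held 4 libraries of genotype FcgammaR2BKO/CD23Cre+. By genotype, both groups thus lacked FcγRIIB, the inhibitory Fc receptor, a background in which mice develop spontaneous lupus-like autoimmunity. The Cre driver is named in the labels for the controls and not for UMPS_BKO, and nothing says that each library came from a separate animal. P-values therefore measure only the spread between these libraries, which may be technical.

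UMPS completes de novo pyrimidine synthesis by forming uridine monophosphate, and pyrimidine nucleotides are building blocks of ribosomal RNA. Ribosomes are assembled in the nucleolus. RNA polymerase I transcribes the ribosomal RNA precursor, small nucleolar ribonucleoproteins (snoRNPs) modify and cleave it, and separate sets of assembly factors build the small and the large subunit. The transcription factor Myc, which B cells induce on activation and on selection in germinal centres, raises the expression of many of these factors and of the enzymes of polyamine synthesis.

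Members were widely spread across libraries, and none passed the test between the groups. Of the 30 members, 0 were called lower and 0 higher in UMPS_BKO (limma on log2(TPM + 1), adjusted p under 0.05). Of the 10708 genes tested, 10 were called lower (0.0934%) and 4 higher (0.0374%). At an unadjusted p under 0.05, 5 members were lower (16.7%) and 0 higher, namely Pes1, Rrs1, Npm1, Npm3 and Myc, against 1760 tested genes lower (16.4%) and 99 higher (0.925%). The log2 difference, UMPS_BKO minus control, was below 0 for 26 members (86.7%) and for 84.3% of all tested genes. Its median was −0.99 over the members and −0.90 over all tested genes. The typical tested gene thus stood lower in UMPS_BKO by nearly as much as the members did. Median-of-ratios scaling, which sets the typical gene level across libraries, left 17 of 30 members below 0, with a median of −0.19 against −0.15 over all tested genes. On that scale 0 members were called lower, against 0.056% of tested genes, and 0 had an unadjusted p under 0.05 with a lower value, against 4.84%.

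**Figure D1:**
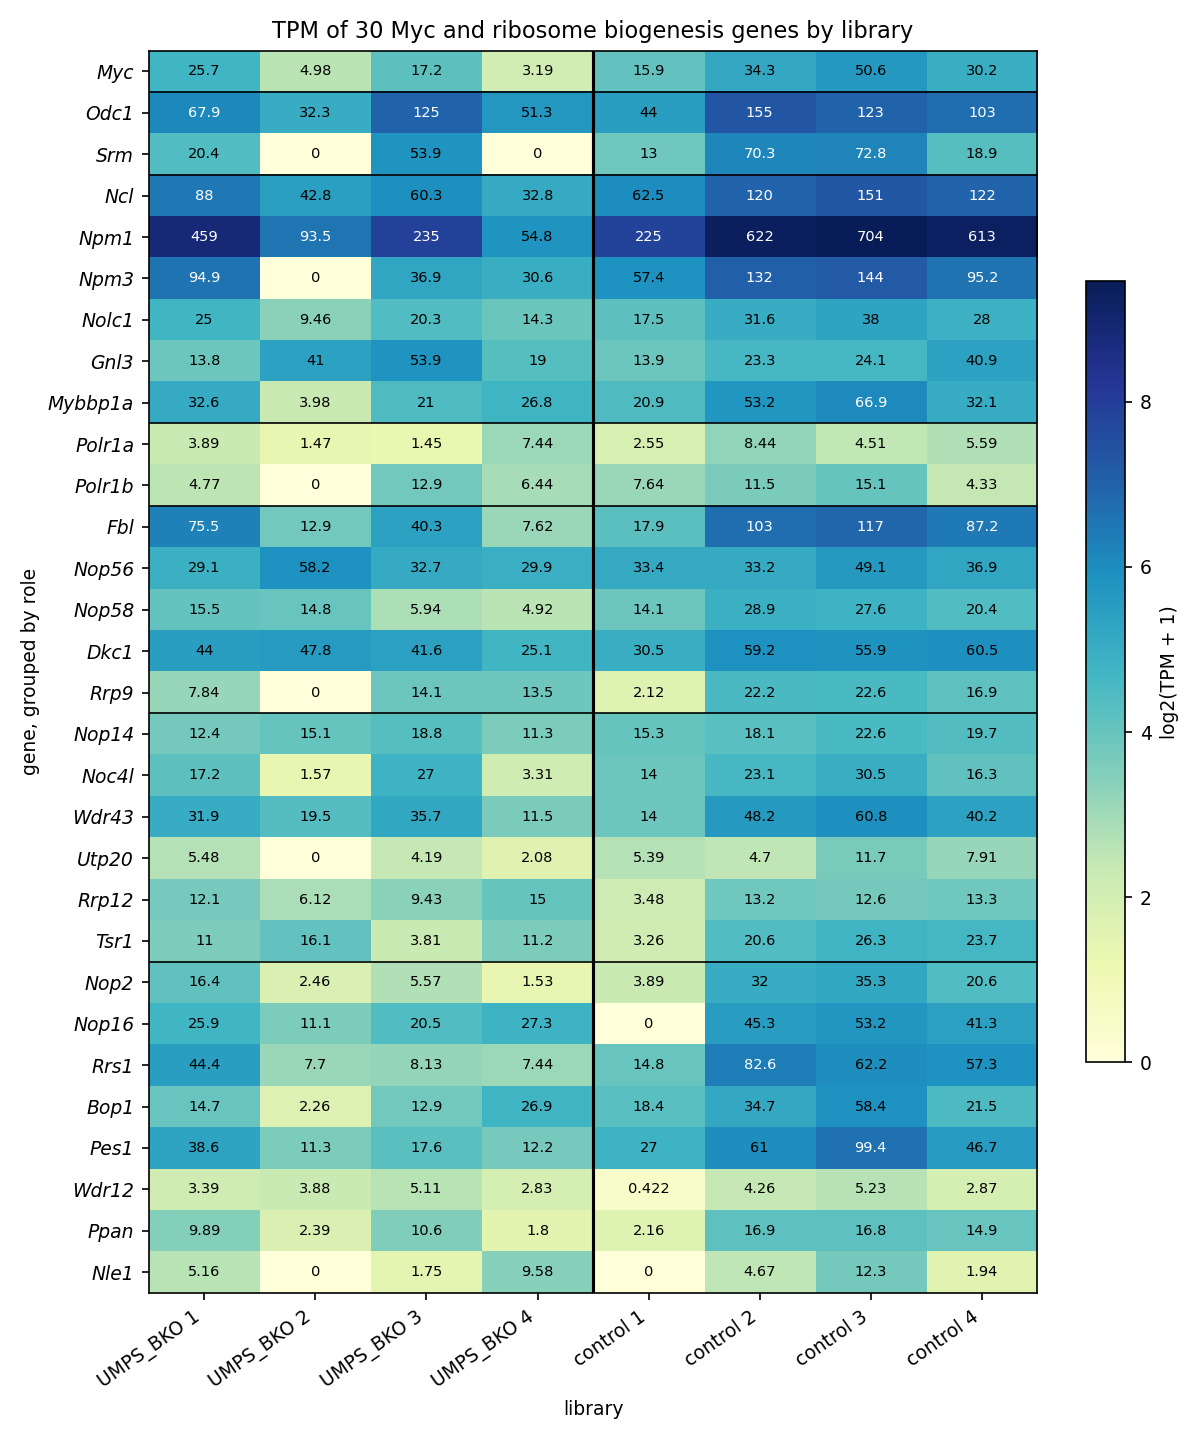
TPM of the 30 members (rows, grouped by role) in the 4 UMPS_BKO and 4 control libraries (columns). Colour gives log2(TPM + 1) and the printed number is the TPM. Control replicates 2 to 4 are the darkest columns, UMPS_BKO replicate 1 has a higher median of log2 values (4.30) than control replicate 1 (3.91), and UMPS_BKO replicate 2 holds 6 members at 0.

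The libraries differed within each group in ways that touch every value below. The deleted gene Umps was at 5.99, 1.05, 13.6 and 2.16 TPM in UMPS_BKO replicates 1 to 4 and at 16.1, 35.1, 18.6 and 8.98 TPM in control replicates 1 to 4, with overlapping groups. Which exons the deletion removes is not known here, so the Umps reads do not check the labels. Fcgr2b, the gene of FcγRIIB, was listed above 0 in every library. It was at 9.54, 2.18, 2.28 and 2.4 TPM in UMPS_BKO and at 9.56, 12.6, 16.8 and 8.42 TPM in the controls. Which part of Fcgr2b the knockout removes is likewise not known here. Depth, worked out from what 1 read is worth in TPM, was 10590000 to 28570000 reads in UMPS_BKO and 5810000 to 18840000 reads in the controls. Ribosomal RNA-like features took 37.6% to 60.5% of TPM in UMPS_BKO and 5.43% to 60.3% in the controls. All 16 pan-B cell markers were above 0 in every library, and their mean log2(TPM + 1) was 8.51, 6.85, 7.34 and 5.21 in UMPS_BKO against 7.77, 8.65, 9.12 and 8.72 in the controls. Summed TPM of 16 skeletal muscle markers reached 154496 in UMPS_BKO replicate 4, and at most 3526 elsewhere. Summed TPM of 16 hepatocyte markers reached 48279 in control replicate 2 and 15272 in control replicate 3, against at most 25.7 elsewhere. Summed TPM of 13 red cell markers was 4222 to 47536 in UMPS_BKO and 168 to 580 in the controls. Mean log2(TPM + 1) of 12 germinal centre B cell markers was 1.46, 0.33, 0.64 and 1.07 in UMPS_BKO replicates 1 to 4. In control replicates 1 to 4 it was 1.49, 4.12, 3.79 and 3.12. For 12 plasma cell markers it was 4.41, 1.94, 2.89 and 1.92 in UMPS_BKO, against 3.60, 5.93, 5.61 and 4.76 in the controls. The median log2 difference was −2.46 over the 10 tested germinal centre genes and −2.97 over the 10 tested plasma cell genes. The part of these cell types and states in the members' values was not tested. In bulk RNA, fewer cells of a type and less RNA per cell cannot be told apart.

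Control replicate 1 and UMPS_BKO replicate 1 were prominent among the libraries that crossed the groups, and were not the only ones. Control replicate 1 was the lowest control for 27 of 30 members, against 73.5% of all tested genes. UMPS_BKO replicate 1 lay above control replicate 1 for 25 of 30 members, against 71.9% of tested genes. Within the range of the 4 controls lay 26, 9, 20 and 11 of the 30 members in UMPS_BKO replicates 1 to 4, against 80.3%, 34.7%, 50% and 46.1% of tested genes. Below that range lay 4, 19, 9 and 18 members. For all tested genes the shares below the control range were 14.9%, 57.6%, 39.9% and 40.5%. Members were highest most often in control replicate 3, the shallowest library, with 21 of 30, against 41.4% of tested genes. The groups did not separate for any member: UMPS_BKO libraries lay all below the controls for 0 of 30, against 4.81% of tested genes, and all above for 0 of 30, against 0.504%. Without control replicate 1 they lay all below the remaining controls for 16 members (53.3%), against 30.6% of tested genes, and still 0 members passed (smallest adjusted p = 0.134, limma). That library was singled out here for its low member values, so the excess is not a test. With any other library left out instead, the members' share was 0% to 16.7%, each time below that of tested genes.

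**Figure D2:**
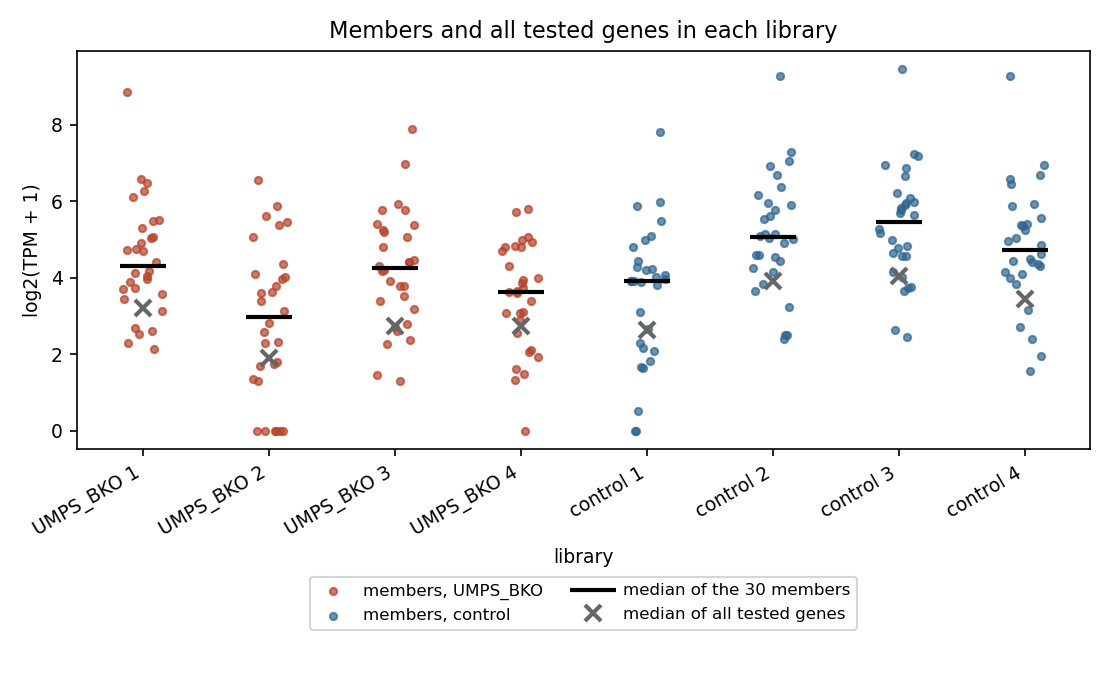
Values of log2(TPM + 1) of the 30 members (points) in each of 4 UMPS_BKO and 4 control libraries, with the median of the members (bar) and of all tested genes (cross). The 2 medians move together: the members' median is 2.98 to 4.30 in UMPS_BKO and 3.91 to 5.47 in the controls, and lies 0.89 to 1.54 above the median of all tested genes in every library.

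Myc (ENSMUSG00000022346, GRCm38 chr15:61985391-61990374, plus strand) was at 25.7, 4.98, 17.2 and 3.19 TPM in UMPS_BKO replicates 1 to 4 and at 15.9, 34.3, 50.6 and 30.2 TPM in control replicates 1 to 4. These values rested on 1315, 133, 622 and 137 recovered reads in UMPS_BKO and on 547, 543, 339 and 888 in the controls. UMPS_BKO replicates 1 and 3 lay above control replicate 1, and UMPS_BKO replicates 2 and 4 below every control. The log2 difference was −1.57 ± 0.72 (SE, 4 libraries a group), with a limma adjusted p = 0.287. With median-of-ratios scaling it was −0.70, and the scaled TPM was 22.8, 10.5, 22.5 and 4.91 in UMPS_BKO against 21.2, 19, 24.8 and 22.1 in the controls. On that scale Myc varied little among the controls, UMPS_BKO replicates 1 and 3 stood with them, and replicates 2 and 4 were lower. Set against the pan-B cell markers of the same library, log2(TPM + 1) of Myc stood at −3.78, −4.27, −3.16 and −3.14 in UMPS_BKO and at −3.70, −3.51, −3.43 and −3.76 in the controls. Relative to those markers, the muscle-rich UMPS_BKO replicate 4 was thus no longer low, because the markers themselves were lowest there.

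The polyamine enzymes are encoded by classical Myc targets. Odc1, ornithine decarboxylase, which catalyses the first and rate-limiting step, was at 67.9, 32.3, 125 and 51.3 TPM in UMPS_BKO and at 44.0, 155, 123 and 103 TPM in the controls. The groups overlapped, with UMPS_BKO replicate 3 second only to control replicate 2. The log2 difference of −0.65 ± 0.61 (SE; limma, adjusted p = 0.509) turned to 0.30 on the scaled values. Srm, spermidine synthase, was at 20.4, 0, 53.9 and 0 TPM in UMPS_BKO and at 13.0, 70.3, 72.8 and 18.9 TPM in the controls. It rested on 615, 0, 1145 and 0 recovered reads in UMPS_BKO and on 264, 655, 287 and 328 in the controls. Srm was thus listed at 0 in libraries of 10590000 and 27280000 reads, while UMPS_BKO replicate 3, with 17640000 reads, gave it 1145. Its log2 difference of −2.57 ± 1.24 was the lowest among the members and did not pass (limma, adjusted p = 0.289). It depends on the pseudocount, because of the zeros.

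The nucleolar chaperones and hub proteins included the most abundant members. Npm1, nucleophosmin, an abundant nucleolar histone chaperone, was at 459, 93.5, 235 and 54.8 TPM in UMPS_BKO and at 225, 622, 704 and 613 TPM in the controls. Control replicates 2 to 4 lay above all other libraries, and control replicate 1 fell among UMPS_BKO. UMPS_BKO minus control came to −1.68 ± 0.71 on the log2 scale (SE; limma, adjusted p = 0.283), and −0.73 once scaled. Mouse Npm1 has processed pseudogenes, so the assignment of its reads is uncertain. Npm3, a relative of nucleophosmin, was at 94.9, 0, 36.9 and 30.6 TPM in UMPS_BKO and at 57.4, 132, 144 and 95.2 TPM in the controls. UMPS_BKO replicate 1 lay just under control replicate 4, and the other UMPS_BKO libraries lay below every control (−2.47 ± 1.13; limma, adjusted p = 0.286).

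Ncl, nucleolin, which binds the ribosomal RNA precursor, was at 88.0, 42.8, 60.3 and 32.8 TPM in UMPS_BKO and at 62.5, 120, 151 and 122 TPM in the controls (log2 difference −1.04 ± 0.55, SE; limma, adjusted p = 0.309). Once scaled, Ncl stood at 78.2, 90.1, 78.8 and 50.6 in UMPS_BKO and at 83.5, 66.4, 73.8 and 89.1 in the controls, a log2 difference of −0.09. Nolc1, a chaperone of snoRNPs, was the steadiest member on that scale. Its scaled TPM was 22.3, 19.9, 26.6 and 22 in UMPS_BKO and 23.3, 17.5, 18.6 and 20.5 in the controls, with an SD of log2 values of 0.18 over the 8 libraries. As deposited, its difference was −0.73 ± 0.57, turning to 0.18 after scaling. Nolc1 therefore followed the level of the typical gene in each library, and so did Ncl, except that it was lower in UMPS_BKO replicate 4. The scaling was set by the 6048 genes above 0 in all libraries. Gnl3, nucleostemin, a nucleolar GTPase, was the member of this role whose difference lay above 0. It was at 13.8, 41.0, 53.9 and 19.0 TPM in UMPS_BKO and at 13.9, 23.3, 24.1 and 40.9 TPM in the controls, with UMPS_BKO replicates 2 and 3 above every control (0.21 ± 0.63; limma, adjusted p = 0.839). Mybbp1a, a nucleolar protein that binds Myb and interacts with RNA polymerase I, ranged from 3.98 to 32.6 TPM over UMPS_BKO and from 20.9 to 66.9 TPM over the controls (−1.18 ± 0.71; adjusted p = 0.348).

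The RNA polymerase I subunits among the members were low throughout. Polr1a, the largest subunit, was at 3.89, 1.47, 1.45 and 7.44 TPM in UMPS_BKO and at 2.55, 8.44, 4.51 and 5.59 TPM in the controls. Polr1b, the second largest, was at 4.77, 0, 12.9 and 6.44 TPM in UMPS_BKO and at 7.64, 11.5, 15.1 and 4.33 TPM in the controls. Groups overlapped for both, and the log2 differences were −0.57 ± 0.68 and −0.99 ± 0.84 (SE; limma, adjusted p = 0.603 and 0.468). For Polr1a the difference turned to 0.17 with median-of-ratios scaling.

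Differences of the snoRNP proteins ran from −1.44 for Fbl to −0.07 for Nop56, all 5 below 0. Fbl, fibrillarin, is the methyltransferase of box C/D snoRNPs, and Nop56 and Nop58 form the scaffold it sits on. Fbl was at 75.5, 12.9, 40.3 and 7.62 TPM in UMPS_BKO and at 17.9, 103, 117 and 87.2 TPM in the controls (log2 difference −1.44 ± 0.82, SE; limma, adjusted p = 0.331). Nop58 was at 15.5, 14.8, 5.94 and 4.92 TPM in UMPS_BKO and at 14.1, 28.9, 27.6 and 20.4 TPM in the controls (−1.17 ± 0.62; limma, adjusted p = 0.307). Nop56 was at 29.1, 58.2, 32.7 and 29.9 TPM in UMPS_BKO and at 33.4, 33.2, 49.1 and 36.9 TPM in the controls (−0.07 ± 0.52; limma, adjusted p = 0.940). Its level spanned a narrow range, its highest value came from UMPS_BKO replicate 2, where most members were low, and with median-of-ratios scaling its difference was 0.87. Nop56 stood above Fbl in UMPS_BKO replicates 2 and 4 and in control replicate 1, and Fbl above Nop56 in the other libraries, so the order did not follow the groups. Whether the differences of these genes differ from each other was not tested. Dkc1, dyskerin, the pseudouridine synthase of box H/ACA snoRNPs, was at 44.0, 47.8, 41.6 and 25.1 TPM in UMPS_BKO and at 30.5, 59.2, 55.9 and 60.5 TPM in the controls (−0.36 ± 0.53, turning to 0.58 after scaling). Rrp9, a component of the U3 snoRNP, ranged from 0 to 14.1 TPM over UMPS_BKO and from 2.12 to 22.6 TPM over the controls (−1.0 ± 0.98).

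The small subunit factors had a median log2 difference of −0.62, with 5 of 6 below 0, and a median of 0.30 with 2 of 6 below 0 with median-of-ratios scaling. Nop14, a processome component, was at 12.4, 15.1, 18.8 and 11.3 TPM in UMPS_BKO and at 15.3, 18.1, 22.6 and 19.7 TPM in the controls, the smallest SD of log2 values over the 8 libraries among the members (0.32). Its difference was −0.38 ± 0.54 (SE; limma, adjusted p = 0.664), turning to 0.52 after scaling. Its partner Noc4l was more variable, at 17.2, 1.57, 27.0 and 3.31 TPM in UMPS_BKO and at 14, 23.1, 30.5 and 16.3 TPM in the controls (−1.28 ± 0.80; adjusted p = 0.359). Wdr43, which acts early in the processome, ranged from 11.5 to 35.7 TPM over UMPS_BKO and from 14 to 60.8 TPM over the controls (−0.65 ± 0.64, turning to 0.28 after scaling). Utp20, a large scaffold of the processome, was listed at 0 in UMPS_BKO replicate 2 and reached 5.48 TPM in UMPS_BKO, against 4.70 to 11.7 TPM in the controls (−1.33 ± 0.74). Rrp12, known from yeast for the export of subunits, and Tsr1, a factor of late small subunit maturation, were lowest in control replicate 1, at 3.48 and 3.26 TPM. Their log2 differences were 0.08 ± 0.65 and −0.59 ± 0.75, that of Tsr1 turning to 0.32 after scaling.

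Among large subunit factors, Pes1, Bop1 and Wdr12 are the proteins of the PeBoW complex, which is needed to process the precursor of the large subunit RNAs. Pes1 was at 38.6, 11.3, 17.6 and 12.2 TPM in UMPS_BKO and at 27.0, 61.0, 99.4 and 46.7 TPM in the controls, with UMPS_BKO replicates 2 to 4 below every control. It had the smallest p of the 30 members (a log2 difference of −1.53 with an SE of 0.62; limma, adjusted p = 0.283). Bop1 was at 14.7, 2.26, 12.9 and 26.9 TPM in UMPS_BKO and at 18.4, 34.7, 58.4 and 21.5 TPM in the controls (−1.38 ± 0.74; limma, adjusted p = 0.311). Wdr12 was low in every library, at 3.39, 3.88, 5.11 and 2.83 TPM in UMPS_BKO and at 0.422, 4.26, 5.23 and 2.87 TPM in the controls (0.37 ± 0.66; limma, adjusted p = 0.734). Without control replicate 1 the difference of Wdr12 was −0.09.

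Rrs1, which brings in the small ribosomal RNA of the large subunit in yeast, was at 44.4, 7.70, 8.13 and 7.44 TPM in UMPS_BKO and at 14.8, 82.6, 62.2 and 57.3 TPM in the controls. UMPS_BKO replicates 2 to 4 lay close together and below every control, and UMPS_BKO replicate 1 lay above control replicate 1 (−1.83 ± 0.75; limma, adjusted p = 0.283). Nop2, a methyltransferase of the large subunit RNA, was at 16.4, 2.46, 5.57 and 1.53 TPM in UMPS_BKO and at 3.89, 32.0, 35.3 and 20.6 TPM in the controls (−1.74 ± 0.84; limma, adjusted p = 0.289). Ppan, a processing factor, ranged from 1.80 to 10.6 TPM over UMPS_BKO and from 2.16 to 16.9 TPM over the controls (−0.94 ± 0.81). Nop16, a nucleolar Myc target, was at 25.9, 11.1, 20.5 and 27.3 TPM in UMPS_BKO and at 0, 45.3, 53.2 and 41.3 TPM in the controls. UMPS_BKO lay below 3 of the 4 controls, and the remaining control was listed at 0, so that the log2 difference of 0.23 ± 1.11 became −1.17 without it. Nle1, a factor of late large subunit assembly, was at 5.16, 0, 1.75 and 9.58 TPM in UMPS_BKO and at 0, 4.67, 12.3 and 1.94 TPM in the controls (−0.08 ± 0.93, turning to 0.56 after scaling). With array weights, which let limma give less weight to the more variable libraries, 5 members were called lower: Npm1, Nop58, Nop2, Rrs1 and Pes1 (adjusted p = 0.0324 to 0.0484). In that fit 17.8% of all tested genes were called lower, so the members' 16.7% lay at the background.

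**Figure D3:**
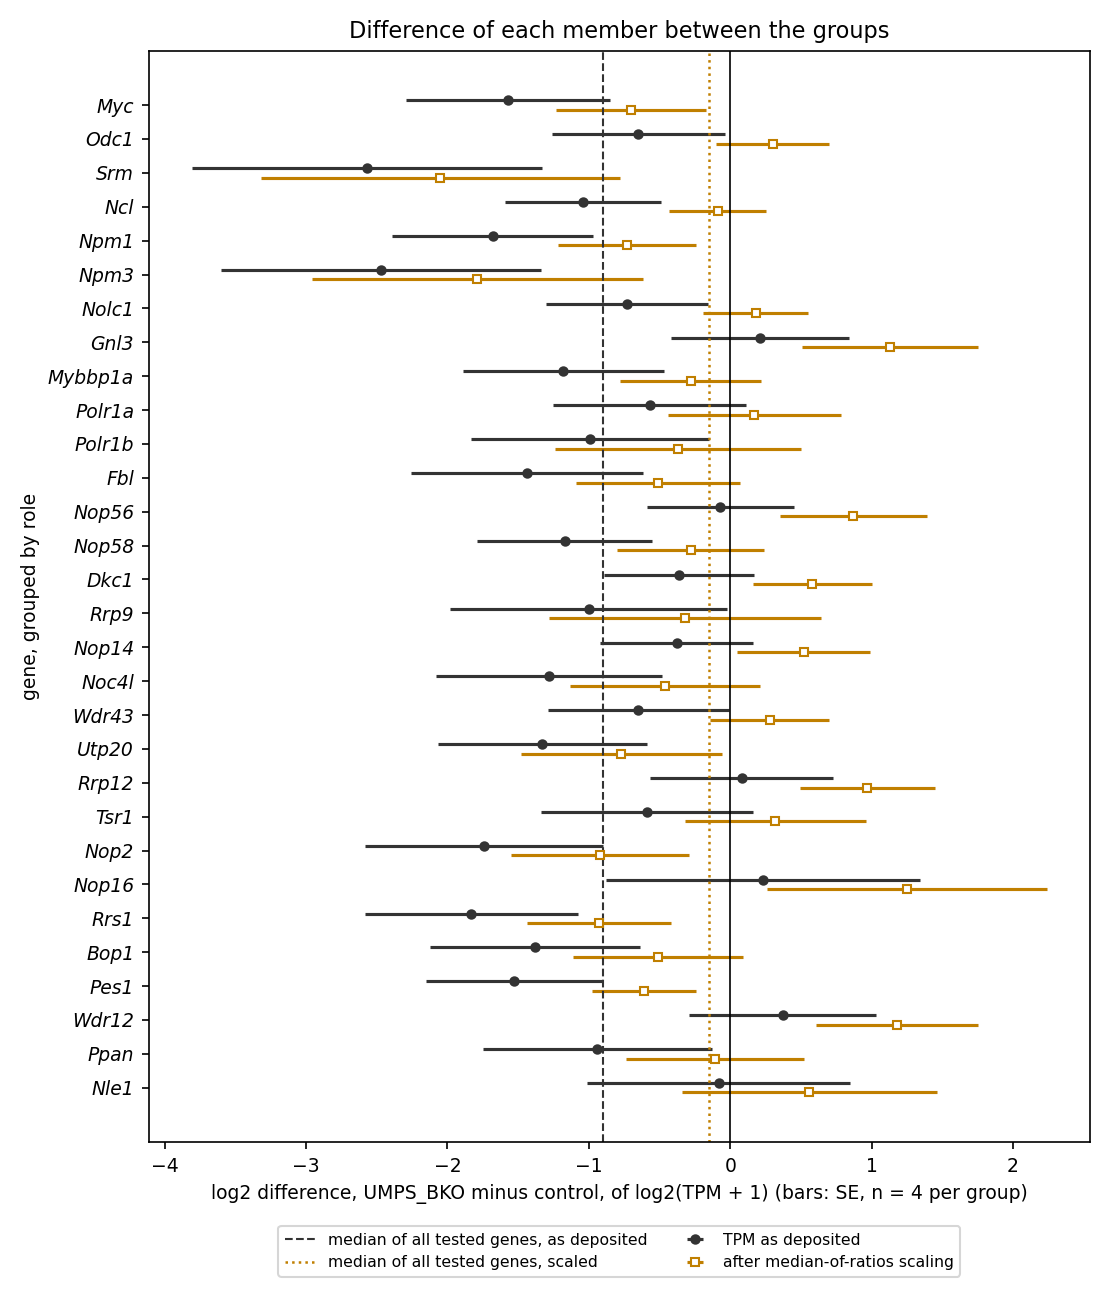
Log2 difference (UMPS_BKO minus control) of each member with its SE (n = 4 per group), from TPM as deposited (filled circles) and with median-of-ratios scaling (open squares). Dashed and dotted lines mark the medians of all tested genes, −0.90 and −0.15, and the members lie on both sides of them on either scale.

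The members listed at 0 were spread unevenly over the libraries. There were 6 members at 0 in UMPS_BKO replicate 2 (Srm, Npm3, Polr1b, Rrp9, Utp20 and Nle1), 1 in UMPS_BKO replicate 4 (Srm) and 2 in control replicate 1 (Nop16 and Nle1). Of all tested genes, 30.1%, 10.1% and 12.1% were at 0 in the same libraries. UMPS_BKO replicate 3 had 0 members at 0 and 15.9% of tested genes. For Npm3 in UMPS_BKO replicate 2, 3 reads would have given 0.257 TPM, and for Srm in UMPS_BKO replicates 2 and 4 they would have given 0.191 and 0.119 TPM. These limits cover counting error only. Ncl and Npm1 held 4286 and 2451 reads in UMPS_BKO replicate 2, where those 6 members were listed at 0. A fitted difference of any gene listed at 0 in a library depends on the pseudocount and is not a fold.

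The wider pathway was described with 7 further lists that hold 211 genes, of which 201 were tested. With p adjusted over all tested genes, limma called 0 of the 201 lower and 0 higher. At an unadjusted p under 0.05, 37 were lower (18.4%, against 16.4% of all tested genes) and 1 higher. All UMPS_BKO libraries lay below all controls for 16 of the 201, against 4.81% of tested genes. Their median log2 difference was −1.04, against −0.90 over all tested genes, and −0.20 against −0.15 with median-of-ratios scaling. The genes named from each list are up to 4 with the smallest p. Of 15 genes of RNA polymerase I transcription, 13 lay below 0 (median −0.88), against 84.3% of all tested genes. Polr1e, a subunit of the polymerase, was at 2.42, 0, 0 and 0.114 TPM in UMPS_BKO and at 10.1, 9.82, 6.98 and 7.89 TPM in the controls. All UMPS_BKO libraries lay below all controls (−2.78 ± 0.64; limma, adjusted p = 0.181), and the difference was −2.39 after scaling. It had the smallest p of the 201 genes. Taf1b, Znrd1 and Polr1c stood at −1.62, −1.50 and −1.64.

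The lists in this paragraph stand beside 84.3% of all tested genes below 0. Of 14 genes of snoRNPs and their assembly, 12 lay below 0 (median −1.15). Gar1, Nhp2 and Nop10, the partners of dyskerin in box H/ACA snoRNPs, had log2 differences of −2.54 ± 0.85, −1.73 ± 0.72 and −1.44 ± 0.63 (limma, adjusted p = 0.283 for each), and −1.68, −0.79 and −0.50 after scaling. Coil, coilin, the marker of Cajal bodies, was at 5.61, 11, 3.49 and 4.35 TPM in UMPS_BKO and at 0, 4.29, 1.96 and 0 TPM in the controls (1.73 ± 0.72; limma, adjusted p = 0.283). Of 53 tested small subunit genes, 51 lay below 0 (median −1.05), with Utp14a at −2.63 ± 0.76, Wdr3 at −2.37 ± 0.75, Ddx49 at −2.46 ± 0.93 and Ddx47 at −2.20 ± 0.83. UMPS_BKO lay wholly below the controls for 4 of the 53 (against 4.81% of all tested genes), Utp14a, Wdr3 and Ddx47 among them. Of 51 large subunit genes, 48 lay below 0 (median −1.01), with Nop53, Surf6, Zfp622 and Rrp1 at −1.92, −1.72, −1.44 and −1.75. Of 11 tested snoRNA host transcripts, 8 lay below 0 (median −0.60). Gas5 was at 53.6, 8.17, 55.1 and 17.8 TPM in UMPS_BKO and at 67.7, 91.5, 102 and 86.6 TPM in the controls, without overlap (−1.69 ± 0.66; limma, adjusted p = 0.283). Snhg8, Snhg15 and Snhg5 stood at −1.12, −1.53 and −1.19.

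In the Myc dimerization network, 10 of 12 tested genes lay below 0 (median −0.86), against 84.3% of all tested genes. Max, the obligate partner of Myc, was at 93.4, 12.6, 47.9 and 47.4 TPM in UMPS_BKO and at 62.0, 129, 181 and 126 TPM in the controls (−1.49 ± 0.66; limma, adjusted p = 0.283). Mxd3, a partner of Max that opposes Myc, was at 1.71 TPM in UMPS_BKO replicate 1 and listed at 0 in the other UMPS_BKO libraries, against 14.3, 2.47, 4.29 and 4.97 TPM in the controls (−2.32 ± 0.66; limma, adjusted p = 0.277). Mnt and Mxd1, which also compete with Myc for Max, stood at −1.28 and −0.91. Of 45 tested genes among other known Myc targets, 42 lay below 0 (median −1.06), with Srsf7, Ran, Cct2 and Phb2 at −1.43, −1.50, −1.34 and −1.65.

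Differences among the members went with annotated exon length. Over the 30 members, Spearman's rho between the log2 difference and exon length was 0.46, against 0.18 over 10694 tested genes with a length, and 0.41 against 0.17 with median-of-ratios scaling. The points share libraries and pathway, and the values are a description. By library, the rho of the members was −0.11, 0.47, 0.07 and 0.34 in UMPS_BKO replicates 1 to 4, each against the control mean. The 10 shortest members, of 1187 to 2933 bases, had a median difference of −1.63. The 10 of intermediate length had −0.69 and the 10 longest, of 4340 to 11955 bases, had −0.82. Npm3 and Srm, the shortest, had the lowest differences, and Wdr12, the longest, the highest. Exon length here joins all annotated transcripts of a gene, including those that retain introns. Malat1, a nuclear noncoding RNA chosen after its values were seen, was at 443, 5275, 2670 and 2143 TPM in UMPS_BKO and at 1309, 206, 95.1 and 548 TPM in the controls, with control replicate 1 the highest control. The part in these differences of the balance between nuclear and cytoplasmic RNA was not tested.

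**Figure D4:**
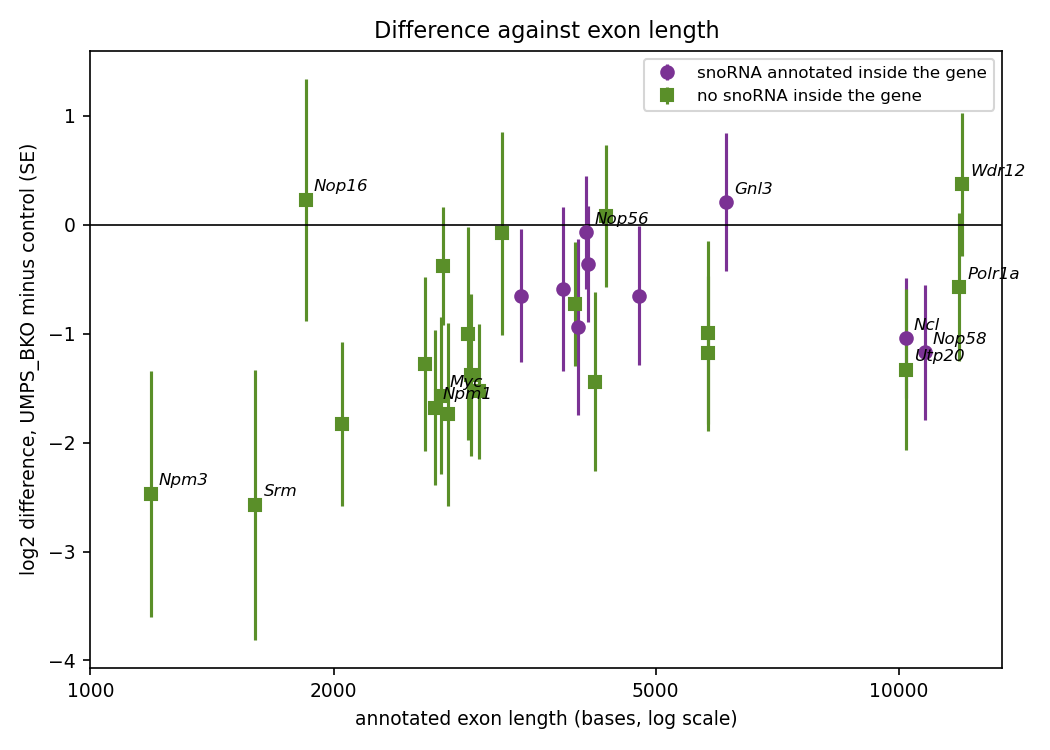
Log2 difference (UMPS_BKO minus control, with SE, n = 4 per group) of the 30 members against annotated exon length on a log axis, with members that hold an annotated snoRNA as circles and the others as squares. The shortest members Npm3 and Srm lie lowest, while Nop16 (0.23) and Nop14 (−0.38), also among the 10 shortest, lie above the medians of the longer members.

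Intronic snoRNAs, the guides of ribosomal RNA modification, lie inside 9 of the 30 members (Odc1, Ncl, Gnl3, Nop56, Nop58, Dkc1, Wdr43, Tsr1 and Ppan), with 24 annotated snoRNA features among them. These 9 had a median log2 difference of −0.65, and the other 21 members one of −1.28. None of the 9 is among the 10 shortest members or is listed at 0 in any library. A part of snoRNAs in this contrast cannot be told apart from exon length or from the zeros. With median-of-ratios scaling the medians were 0.30 and −0.46, against medians of −0.90 as deposited and −0.15 scaled over all tested genes. Reads were listed for 4 of the 24 snoRNA features in any library, in RNA that had been enriched for poly(A).

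Myc binds the E-box CACGTG, and this motif was looked for in promoter windows of 250 bases before to 50 bases after the start site (RefSeq, GRCm38.p6). The motif is its own reverse complement, so a search of 1 strand covers both. Of the 30 members, 23 had a window and 7 of these held the motif (30.4%), against 12.3% of 7916 tested genes with a window and 7.15% of all 32851 windows. The members were chosen from a list that includes Myc targets, so this contrast is a description and not a test. The first base of the motif lay 60 bases before the start site in Nop2 and 3 to 41 bases after it in the other genes. The 30 bases around each site are shown to place the motif in the genes described above, 5′ to 3′ on the strand of the gene, with the E-box in capitals:
Nop2 (chr6:125131811-125131840, plus strand): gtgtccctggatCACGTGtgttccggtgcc
Pes1 (chr11:3963965-3963994, plus strand): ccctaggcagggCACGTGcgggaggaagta
Wdr43 (chr17:71616220-71616249, plus strand): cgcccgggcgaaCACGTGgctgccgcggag
Nle1 (chr11:82908355-82908384, minus strand): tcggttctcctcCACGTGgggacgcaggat
Tsr1 (chr11:74898092-74898121, plus strand): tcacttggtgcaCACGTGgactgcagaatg
Utp20 (chr10:88826765-88826794, minus strand): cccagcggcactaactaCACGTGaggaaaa
Mybbp1a (chr11:72441347-72441376, plus strand): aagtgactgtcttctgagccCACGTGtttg
The flanks of these sites differ from gene to gene, and so do the genes' values. The 7 members with the motif had a median log2 difference of −1.18, from −1.74 for Nop2 to −0.08 for Nle1, and the 16 with a window and no motif had −0.69. With median-of-ratios scaling the medians were −0.28 and 0.17. Whether Myc occupies these sites was not measured, and no match says only that these letters are not in the window.

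UMPS_BKO replicate 1 was the library of its group with B cell markers at control level. Fitted alone against the 4 controls, with its spread assumed to be that of the controls, it gave 0 called members (smallest adjusted p = 1.00, limma). The median difference was −0.25 over the members and −0.23 over all tested genes. Fbl and Nle1, below 0 with all libraries, then stood at 0.19 and 0.67, and Gnl3 at −0.75. Without UMPS_BKO replicate 1, 0 members were called lower, against 2.16% of tested genes, and 9 had an unadjusted p under 0.05, against 26.9% of tested genes on the lower side. The UMPS_BKO libraries then lay all below the controls for Ncl, Npm3, Utp20, Rrs1 and Pes1, or 16.7% of members against 20.1% of tested genes. Without UMPS_BKO replicate 4 and control replicate 2, the libraries with the most muscle and hepatocyte markers, the members' median was −0.74 and that of all tested genes −0.78, with 0 members called. Control replicate 3, which also holds hepatocyte markers, remained in that fit. Leaving it out as well, a choice made after seeing the data, gave medians of −0.50 over the members and −0.44 over all tested genes, again with 0 members called, and 21 of 30 members below 0. With the mean of the pan-B cell markers added as covariate, these medians were −0.13 and −0.39. That covariate itself differed between the groups, at 8.51, 6.85, 7.34 and 5.21 in UMPS_BKO and 7.77, 8.65, 9.12 and 8.72 in the controls. With 8 libraries, the fit cannot fully separate it from the group.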

How the data were processed

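The authors deposited TPM, with a column for each library that sums to 1000000 across the 49315 features. The tools in the submitters' processing notes are STAR 2.5.2b, Subread 1.5.2, featureCounts and bcl2fastq 2.20, and the build there is GRCm38. Sources used here do not give the annotation release, the strand setting or the TPM calculation. For 13 members a feature of at least 1 TPM overlaps on the other strand (among them Idh3b for Nop56 and Pbrm1 for Gnl3), and their reads are uncertain. Columns were matched to samples by library name, and groups and replicate numbers came from titles.

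Genes with TPM of at least 1 in at least 4 of 8 libraries were tested, 10708 in all, including the 30 members. The fit used limma 3.58.1 (R 4.3.3) on log2(TPM + 1), two-sided, with a trend in eBayes and a Benjamini-Hochberg adjusted p under 0.05 as the threshold. Differences on this scale understate the change of low genes. The fit was tried on simulated log2 values, drawn as independent normal values for each gene. They held no shifts shared within a library and no excess of zeros, so they do not cover these features of the data. Lengths and coordinates came from GENCODE M21 on GRCm38. Reads were recovered as TPM times length divided by the value of 1 read. Of values under 30 reads, 90.7% to 92.8% were whole within 0.05 reads. No count model was run.

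All 30 members are named, with up to 4 genes of smallest p from each wider list. The members and lists were chosen with earlier results of these data known. Python 3.11.15, pandas 2.3.3 and scipy 1.17.1 were used. Alternatives are given in the closing section.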

Additional observations from a re-analysis of the deposited data

Results flagged for a closer look

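In 10 of 60 groups of 4 libraries, the highest or lowest log2(TPM + 1) of a member stood apart from the other 3 by more than Dixon's 95% critical value allows. Chance alone would flag about 1 group in 20, or 3 of 60, and the members share libraries. Of the 10, 8 were low values of control replicate 1. There Npm1 was at 225 TPM against 613 to 704 in the other controls, Fbl at 17.9 against 87.2 to 117, and Dkc1 at 30.5 against 55.9 to 60.5. Rrp9 was at 2.12 against 16.9 to 22.6, Rrp12 at 3.48 against 12.6 to 13.3, and Tsr1 at 3.26 against 20.6 to 26.3. Ppan was at 2.16 against 14.9 to 16.9, and Nop16 at 0 against 41.3 to 53.2. Ribosomal RNA-like features took 60.3% of TPM in that library and 12.1% of tested genes were at 0. Their part in these values was not tested. In UMPS_BKO, Nop56 was high in replicate 2, at 58.2 TPM against 29.1 to 32.7, and Rrs1 was high in replicate 1, at 44.4 TPM against 7.44 to 8.13.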

How the results depend on the processing

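With 22 alternatives, the members' median lay between 0.53 below and 0.26 above that of all tested genes. The value of −0.53 came with no filter, where it compared −0.99 with −0.46. No member was called higher in any alternative, and array weights were the one setting that called any lower (5). Genes called lower numbered 5 with a pseudocount of 5, 1 with no filter, 6 with a mean TPM of at least 5 or the median of ratios, and 5 with quantile normalization or leaving out ribosomal RNA-like and mitochondrial features. They numbered 1906 with array weights, 1 without UMPS_BKO replicate 4 and control replicate 2 or with the pan-B cell covariate, and 0 with UMPS_BKO replicate 1 alone or without UMPS_BKO replicate 4 and control replicates 2 and 3, a setting chosen after seeing the data. Genes called higher numbered 1 with a pseudocount of 0.1 or leaving out the same features, 84 with array weights, and 0 with no filter, the covariate, UMPS_BKO replicate 1 alone or those 3 libraries left out. With each library left out in turn, 1 to 231 genes were lower (231 without UMPS_BKO replicate 1) and 0 to 17 higher. The median of the members then ran from −1.34 to −0.63, and 0 to 16 members had all UMPS_BKO libraries below the controls. That count was 1 without UMPS_BKO replicate 4 and control replicate 2, 1 with control replicate 3 left out too, and 4 with UMPS_BKO replicate 1 alone. The members' median was −0.19 with the median of ratios, −0.12 with quantile normalization, −0.25 with UMPS_BKO replicate 1 alone and −0.13 with the covariate. That of all genes was −0.15, −0.02 and −0.23 in the first 3 of these. Both medians were −0.37 leaving out ribosomal RNA-like and mitochondrial features, with 17 of 30 members below 0. The cause of these changes was not tested, beyond the fewer libraries used.

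Of 657 member differences under alternatives, 56 turned direction, in 15 members, none of them called. With the median of ratios Odc1 stood at 0.30, Nolc1 at 0.18, Polr1a at 0.17, Nop56 at 0.87, Dkc1 at 0.58, Nop14 at 0.52, Wdr43 at 0.28, Tsr1 at 0.32 and Nle1 at 0.56. With quantile normalization these genes stood at 0.24, 0.11, 0.37, 0.77, 0.49, 0.46, 0.21, 0.26 and 0.84. Leaving out ribosomal RNA-like and mitochondrial features, they stood at 0.12, 0.01, 0.01, 0.70, 0.41, 0.36, 0.11, 0.16 and 0.47. With the covariate Fbl stood at 0.38, Dkc1 at 0.13, Wdr43 at 0.33, Ppan at 0.42 and Nle1 at 0.17. With UMPS_BKO replicate 1 alone Gnl3 was at −0.75, Fbl at 0.19 and Nle1 at 0.67. Without UMPS_BKO replicate 4 and control replicates 2 and 3, Nop56 stood at 0.12, Dkc1 at 0.05, Wdr43 at 0.23, Ppan at 0.09 and Nle1 at 0.58. Array weights gave −0.28 for Rrp12 and −0.88 for Nop16, and a pseudocount of 5 gave −0.18 for Nop16. With 1 library left out, Gnl3 ran from −0.10 to 0.53, Nop56 from −0.29 to 0.06, Rrp12 from −0.33 to 0.30, Nop16 from −1.17 to 0.75, Wdr12 from −0.09 to 0.62 and Nle1 from −0.73 to 0.55.

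Replicate numbers did not pair the libraries: deviations of same-numbered libraries correlated at −0.347, −0.190, −0.0285 and −0.0897, and 0 of 4 matched best with their own number. With the replicate block 23 genes were called lower and 0 members (smallest adjusted p = 0.474, limma), at the same medians of −0.99 and −0.90. Depth was 5810000 to 28570000 reads a library, and what it limits for single members was not tested.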

Other observations

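UMPS_BKO replicate 3 had the highest red cell marker sum, 47536 TPM. Its proliferation markers averaged 4.63 on the log2(TPM + 1) scale, against 3.45, 1.91 and 2.13 in UMPS_BKO replicates 1, 2 and 4 and 3.11, 5.50, 5.09 and 4.46 in control replicates 1 to 4. In that library 20 of 30 members lay within the control range, against 50% of tested genes. It was the highest UMPS_BKO library for 10 of 30 members, against 18.7% of tested genes, with Odc1 at 125 TPM and Srm at 53.9 TPM. It was the lowest UMPS_BKO library for 2 members, Polr1a at 1.45 TPM and Tsr1 at 3.81 TPM. The part of red cell precursors in these values was not tested.

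The members took 0.126%, 0.0463%, 0.0953% and 0.0472% of TPM in UMPS_BKO replicates 1 to 4 and 0.0700%, 0.192%, 0.217% and 0.164% in control replicates 1 to 4.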
